A study of Rattus norvegicus with 18 samples.

Results

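Sftpa1, Sftpd, Napsa and Aqp5 are 4 genes of the epithelium that lines the alveoli, 3 of them from the type II cell side and 1, Aqp5, from the type I cell side. They were taken by symbol from the table that pairs the array probes with genes, and make up 4 of the 4616 named genes on the arrays. Each has 1 distinct probe, listed in 2 rows with the same values, and a value in all 18 samples. The table gives them the Entrez gene identifiers 24773 (Sftpa1), 25350 (Sftpd), 60575 (Napsa) and 25241 (Aqp5).

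Type II cells are cuboidal cells that make surfactant, the film of lipids and proteins that lowers surface tension in the alveolus, and they can divide and give rise to type I cells. Type I cells are flat and cover most of the alveolar surface, where gas exchange takes place. Surfactant proteins A (Sftpa1) and D (Sftpd) are collectins, secreted lectins that bind microbes and aid their uptake by macrophages. Napsin A (Napsa) is an aspartic protease of type II cells that takes part in the processing of surfactant protein B. Aquaporin 5 (Aqp5) is a water channel of the apical membrane, which in rat lung marks type I cells and is also made in airway glands.

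Rats were exposed by nose only to cigarette smoke at 600 µg total particulate matter per litre (the high dose) or 300 µg per litre (the low dose), and control rats breathed conditioned fresh air in the same way. Each day of a 5-day week held 2 sessions of 1 h, parted by 30 min of rest in fresh air, and exposure went on for 2, 7 or 13 weeks. Lungs were taken once 2, 6 or 20 hours had passed since the final session. Each of the 18 samples compares RNA pooled from 4 smoke-exposed rats, in the red channel, with RNA pooled from 4 fresh-air rats, in the green channel, so that 9 samples at each dose cover the 9 combinations of weeks and hours. Both doses of a combination share 1 fresh-air pool, which makes 9 such pools.

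The labels name no strain, sex or age, and the RNA is from whole lung, with all cell types mixed. The values are log2 ratios of smoke over air; they hold no level, so the tissue label could not be checked against marker levels and no gene's abundance can be set against another's. A combination has 1 pool at each dose and no replicate, so each error given with a mean is the spread over combinations that differ in weeks and hours. No dye swap is named, and a constant dye effect cannot be told apart from an effect of smoke in a ratio against air, while it cancels in the difference between the doses. A sample held values for 3919 to 4583 genes, and sample medians lay between -0.01 and 0.01.

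The stretches around the start sites of Sftpa1 and Aqp5 are shown because these genes stand on the opposite sides of the comparison, one above and one below air. They are RefSeq sequences on build GRCr8, 250 bases before to 50 after the start, written 5′ to 3′ on the strand of the gene, at chr16:17042014-17042313 (plus strand) for Sftpa1 and chr7:132601278-132601577 (plus strand) for Aqp5. Capitals mark the matches of the motifs named after them. The table used here holds such a stretch for 2 of the 4 genes; Sftpd and Napsa are named only.
Sftpa1: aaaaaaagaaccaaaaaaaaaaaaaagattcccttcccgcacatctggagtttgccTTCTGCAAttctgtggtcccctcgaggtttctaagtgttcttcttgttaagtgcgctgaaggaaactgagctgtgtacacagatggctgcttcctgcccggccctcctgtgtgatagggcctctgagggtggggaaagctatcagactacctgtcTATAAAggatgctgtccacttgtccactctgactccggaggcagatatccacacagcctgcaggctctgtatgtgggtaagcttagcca
Aqp5: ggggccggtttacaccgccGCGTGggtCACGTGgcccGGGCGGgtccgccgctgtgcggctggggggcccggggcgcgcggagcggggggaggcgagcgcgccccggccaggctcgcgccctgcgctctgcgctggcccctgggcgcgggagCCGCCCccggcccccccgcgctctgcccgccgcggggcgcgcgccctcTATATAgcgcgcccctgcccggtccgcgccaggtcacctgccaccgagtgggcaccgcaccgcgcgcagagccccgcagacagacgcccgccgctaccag
The Sftpa1 stretch holds TATAAA, the TATA box, from position -39 relative to the start site, and TTGCNNAA, a site of the C/EBP family, on the minus strand from position -194. In the Aqp5 stretch the matches are TATATA from position -50, GGGCGG, the GC box, from position -213 and on the minus strand from position -98, GCGTG, the core bound by the aryl hydrocarbon receptor, from position -231, and CACGTG, an E-box, from position -223. None of these matches overlap. TGACTCA (AP-1) and CTCAAG (NKX2-1) were searched as well and match neither stretch. Of 33469 RefSeq stretches of 300 bases, searched on both strands, 14.2% hold TATAAA, 10.6% TTGCNNAA, 6.1% TATATA, 33.1% GGGCGG, 29.7% GCGTG, 6.4% CACGTG, 4.6% TGACTCA and 15.8% CTCAAG. Base composition sets them apart more than the motifs do. Sftpa1 has a GC content of 49.3% and 5 CpG, near the medians of 51.7% and 7 over all stretches, whereas Aqp5 has 82.3% and 49 CpG, at percentiles of 99.6 and 99.1. A match is a description of letters, and these stretches were not tested for activity.

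The type II genes were higher and the type I gene lower after smoke at the high dose, and the 3 type II genes also passed as higher at the low dose. All 4 passed the test at the high dose (limma on the 9 log2 ratios, Benjamini-Hochberg adjusted over 4016 tested genes, threshold 0.05), 3 higher and 1 lower. Over all tested genes 9.56% passed as higher and 7.64% as lower, 17.2% in either direction. At the low dose 3 of the 4 members passed, all higher, where 3.51% of genes passed as higher and 1.44% as lower, 4.96% in all. The 4 genes were picked with earlier results of these data known, so these counts describe them and are no independent evidence. More or fewer cells of a type and more or less RNA per cell cannot be told apart in whole-lung RNA.

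Sftpa1 at the high dose gave log2 ratios of 0.33, 0.31 and 0.53 at 2, 6 and 20 hours after 2 weeks, 0.94, 0.76 and 0.63 after 7 weeks and 0.71, 0.38 and 0.31 after 13 weeks. The low dose gave 0.14, 0.15 and 0.19 after 2 weeks, 0.60, 0.44 and 0.25 after 7 weeks and 0.45, 0.18 and 0.31 after 13 weeks. All 18 values lay above air, and the highest at each dose was that of 7 weeks and 2 hours. The mean log2 ratio of Sftpa1 was 0.54 ± 0.07 at the high dose (limma SE, n = 9, adjusted p = 0.000148), which is 1.46 times the air level. It was 0.30 ± 0.06 at the low dose (n = 9, limma adjusted p = 0.0077), or 1.23 times the air level. This call was lost without the samples of 7 weeks, 13 weeks, 2 hours or 20 hours (0.24 to 0.33, limma adjusted p between 0.0508 and 0.122). It was also lost with an exact sign-flip test, but 9 values set a lower limit to p there, and no gene passed at the low dose. Sftpa1, above air in all 9 samples, had the smallest p that test can give. By mean ratio Sftpa1 stood 67th from the top of the 4016 genes at the high dose and 111th at the low dose. Of the genes with all 18 values, 5.31% were above air in each of the 9 high-dose samples, as Sftpa1, Sftpd and Napsa were, and 3.15% were also above air in at least 8 of the 9 low-dose samples, as those 3 were too.

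Sftpd had log2 ratios of 0.30, 0.18 and 0.24 after 2 weeks at the high dose, 0.79, 0.99 and 0.62 after 7 weeks and 0.41, 0.39 and 0.56 after 13 weeks, in the order of 2, 6 and 20 hours. Low-dose ratios were 0.08, -0.17 and 0.16 after 2 weeks, 0.25, 0.64 and 0.49 after 7 weeks and 0.41, 0.20 and 0.43 after 13 weeks. One of the 18 values, that of the low dose at 2 weeks and 6 hours, was below air, and the 3 high-dose values after 2 weeks lay below the other 6. The share of all genes with such a separation at the high dose was not computed. Sftpd averaged 0.50 ± 0.08 at the high dose (n = 9, limma adjusted p = 0.00066), 1.41 times the air level, and 0.28 ± 0.07 at the low dose (n = 9, limma adjusted p = 0.0455), 1.21 times the air level. The low-dose value stood just inside the threshold: when 1 combination at a time was left out it passed only without 2 weeks and 6 hours, at 0.33, and missed without any of the other 8, at 0.23 to 0.30 with adjusted p up to 0.11.

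Napsa at the high dose read 0.12, 0.15 and 0.12 after 2 weeks, 0.62, 0.49 and 0.38 after 7 weeks and 0.51, 0.12 and 0.62 after 13 weeks. Its low-dose log2 ratios were 0.25, -0.01 and 0.12 after 2 weeks, 0.23, 0.18 and 0.31 after 7 weeks and 0.69, 0.36 and 0.30 after 13 weeks. The highest value of all came from the low dose, at 13 weeks and 2 hours, and the values of both doses overlapped over nearly their whole range. Napsa averaged 0.35 ± 0.07 at the high dose (n = 9, limma adjusted p = 0.00351), 1.27 times the air level; without the 7-week samples it was 0.27 and did not pass (adjusted p = 0.0912). The low dose gave 0.27 ± 0.06 (n = 9, limma adjusted p = 0.0265), 1.21 times the air level. Without the low-dose sample of 2 weeks and 2 hours, 7 weeks and 20 hours, 13 weeks and 6 hours or 13 weeks and 20 hours, this value was between 0.26 and 0.27 and missed the threshold, with adjusted p between 0.0515 and 0.0627.

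Aqp5 was the only one of the 4 on the side below air. High-dose log2 ratios were -0.27, -0.14 and 0.00 after 2 weeks, -0.64, -0.06 and -0.23 after 7 weeks and -0.56, -0.62 and -0.10 after 13 weeks. Those of the low dose were -0.04, -0.12 and -0.03 after 2 weeks, -0.30, -0.22 and -0.23 after 7 weeks and -0.32, -0.20 and -0.09 after 13 weeks. No sample lay above air, and 3 high-dose samples, 7 weeks at 2 hours and 13 weeks at 2 and 6 hours, were below every low-dose sample. Aqp5 fell to 0.817 of the air level at the high dose, a mean log2 ratio of -0.29 ± 0.07 (n = 9, limma adjusted p = 0.0158). This call was lost without the samples of 7 weeks (-0.28), 13 weeks (-0.22) or 2 hours (-0.19), with limma adjusted p of 0.1, 0.137 and 0.192. It was also lost with an exact sign-flip test (adjusted p = 0.0619). There 8 values below 0 and 1 at 0 gave the smallest p that such values can reach, so this loss alone does not show a smaller fall. At the low dose the mean was -0.17 ± 0.05 (n = 9, limma adjusted p = 0.0724), 0.887 of the air level, which did not pass, with all 9 samples below air. At the high dose 8 of 9 samples were below air and 1 at it. Of the genes with all 18 values 3.65% were below in all 9 high-dose samples, a count that Aqp5 did not reach. The share of genes below in at least 8 at the high dose, or in all 9 at the low dose, was not computed. Aqp5 ranked 122nd from the bottom at the high dose and 236th at the low dose.

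**Figure D1:**
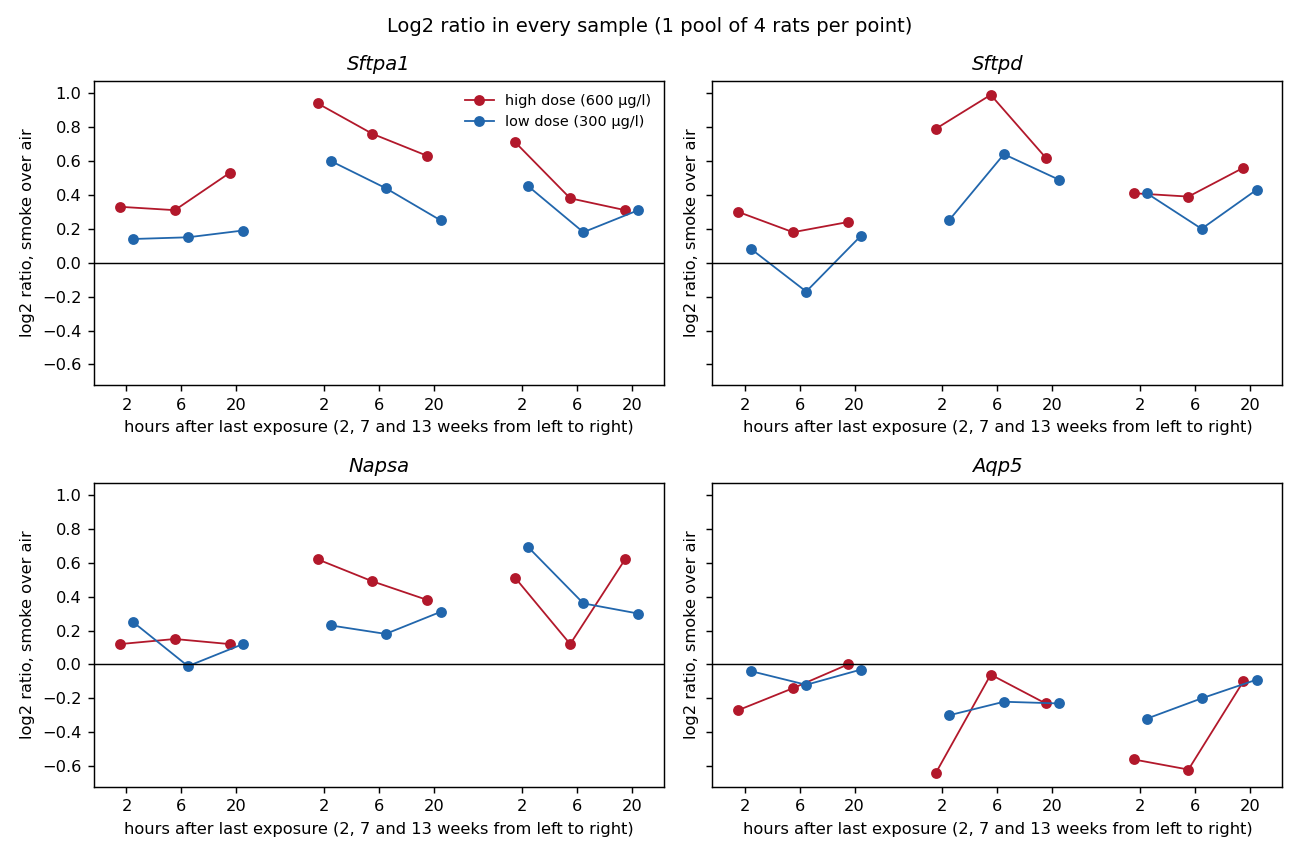
Log2 ratio of smoke over air (y axis) for Sftpa1, Sftpd, Napsa and Aqp5 in each of the 18 samples, by hours after the last exposure (x axis) in blocks of 2, 7 and 13 weeks; each point is 1 pool of 4 rats, red for the high and blue for the low dose. Sftpa1, Sftpd and Napsa lie above 0 except for Sftpd and Napsa in the low-dose sample of 2 weeks and 6 hours, and Aqp5 lies at or below 0 throughout.

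Within a sample, the position of a gene among all genes does not depend on how the ratios were centred. Sftpa1 had a median percentile of 97.6 among all named genes with a value in a high-dose sample and 85.7 in a low-dose sample. For Sftpd these were 91.9 and 85.4, for Napsa 93.4 and 86.5, and for Aqp5 13.1 and 16.3. Aqp5 was the lowest of the 4 genes in 17 of 18 samples; in the low-dose sample of 2 weeks and 6 hours Sftpd was lower. The highest of the 4 was Sftpa1 in 9 samples, Sftpd in 5 and Napsa in 4. The gap between the mean of the 3 type II genes and Aqp5 was 0.75 ± 0.36 (log2, SD, n = 9) at the high dose, with a range of 0.30 to 1.42, and 0.45 ± 0.25 at the low dose, with a range of 0.11 to 0.84. After 2, 7 and 13 weeks the gap averaged 0.39, 1.00 and 0.87 at the high dose and 0.16, 0.63 and 0.57 at the low dose. The 4 genes were picked with earlier results of these data known, and Aqp5 alone stands for the type I side. Their order and the gap thus describe these genes and are no independent evidence.

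**Figure D2:**
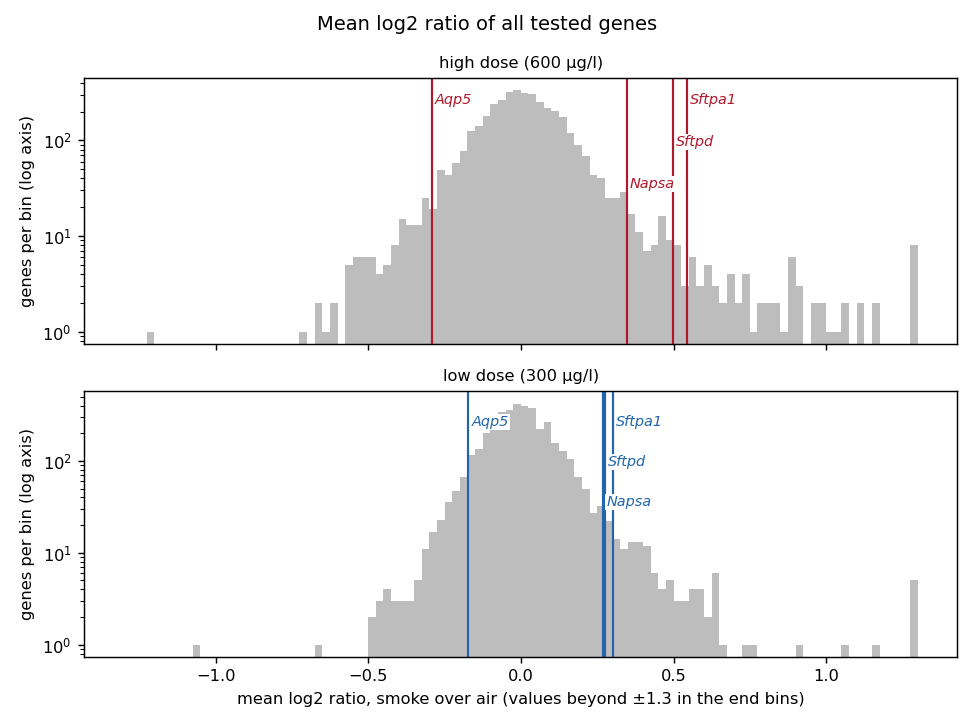
Histograms of the mean log2 ratio of smoke over air (x axis) for the 4016 tested genes, on a log axis of genes per bin (y axis), at the high dose (top) and the low dose (bottom), with vertical lines at the 4 genes. Sftpa1, Sftpd and Napsa stand in the upper tail at both doses and Aqp5 in the lower one.

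The centring of the ratios bears on the size of these values. Reference genes, 9 tested genes commonly used to scale expression, had a median log2 ratio of 0.11 at the high dose, where 4 of them rose, and 0.16 at the low dose, where 2 rose. When each sample was centred on the median of these genes in place of all genes, a choice made after seeing the data, the median over all tested genes became -0.13 at the high dose and -0.10 at the low dose. The 691 genes called at the high dose (384 higher, 307 lower) then became 1557 (154 higher, 1403 lower), and the 199 at the low dose (141 higher, 58 lower) became 528 (74 higher, 454 lower). These counts, out of 4016 tested genes, are the background for each count of list genes on this scale given below. The high-dose means of the 4 genes kept their sides and their calls, at 0.41 for Sftpa1, 0.37 for Sftpd, 0.22 for Napsa and -0.42 for Aqp5. At the low dose Sftpa1 still passed at 0.20 (limma adjusted p = 0.0463), Sftpd at 0.18 and Napsa at 0.17 did not, and Aqp5 at -0.27 did (limma adjusted p = 0.0208). Which centring is nearer to the truth was not tested.

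The dose comparison used the 9 differences, high minus low, between samples that share a fresh-air pool. For Sftpa1 the high dose was above the low dose in 8 of 9 pairs and equal in 1, that of 13 weeks and 20 hours. The mean difference was 0.24 log2 units, with a 95% interval of 0.11 to 0.38 and a limma adjusted p of 0.124. Sftpd showed the same count, 8 above and 1 equal (13 weeks and 2 hours), with a mean difference of 0.22, an interval of 0.08 to 0.36 and a limma adjusted p of 0.201. Taken alone, each gave p = 0.00781 in an exact two-sided sign-flip test over the 9 pairs, without adjustment for the 4 genes or for the genes not shown. So neither passed over all genes, although both intervals lie above 0. Among all tested genes 7 passed (0.174%), 6 of them higher (0.149%) and 1 lower (0.0249%) at the high dose, and 4.07% of genes were higher at the high dose in at least 8 of 9 pairs.

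In Napsa and Aqp5 the difference between the doses was within the spread over pairs. In Napsa the high dose was above the low dose in 5 pairs, equal in 1 and below in 3, a mean difference of 0.08 with a 95% interval of -0.09 to 0.24 (limma adjusted p = 0.806; exact sign-flip p = 0.352). For Aqp5 the high dose was below in 6 pairs, equal in 1 and above in 2, a mean difference of -0.12 with an interval of -0.27 to 0.03 (limma adjusted p = 0.62; exact sign-flip p = 0.102). Over all genes 24.9% were lower at the high dose in at least 6 pairs, so this count is not particular to Aqp5. The interval of Napsa reaches up to a difference about the size of that in Sftpa1, and the interval of Aqp5 reaches at least as far downward. Both comparisons against air use the same 9 fresh-air pools, and the values of a pair are therefore not independent.

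**Figure D3:**
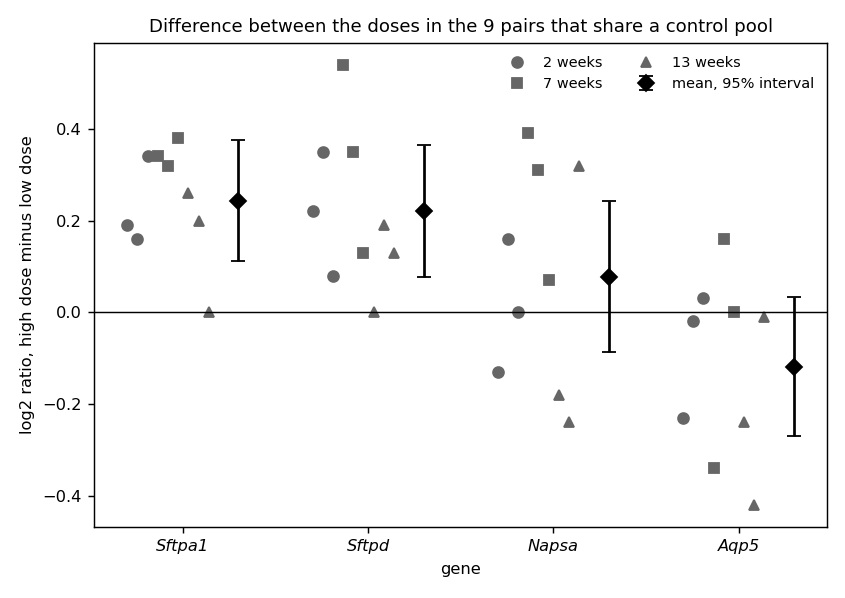
Difference in log2 ratio, high minus low dose (y axis), for the 4 genes (x axis) in the 9 pairs that share a fresh-air pool (grey; circles 2, squares 7, triangles 13 weeks) with the mean and its 95% interval (black). The intervals of Sftpa1 and Sftpd lie above 0, and those of Napsa and Aqp5 cross it.

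Length of exposure was compared on the 9 means of the high-dose and low-dose sample of a pool, which smooths over dose. Sftpd averaged 0.13, 0.63 and 0.40 after 2, 7 and 13 weeks, with single pool means of 0.005 to 0.20, 0.52 to 0.815 and 0.295 to 0.495 (3 pools each). Its 2-week pools thus lay below all others, and 7 weeks was the highest. The difference between 7 and 2 weeks was 0.50 ± 0.11 (limma SE; adjusted p = 0.191), and the F test over the 3 lengths did not pass (limma adjusted p = 0.381). Napsa averaged 0.125, 0.37 and 0.43 after 2, 7 and 13 weeks, with ranges of 0.07 to 0.185, 0.335 to 0.425 and 0.24 to 0.60. Its 2-week pools also lay below all others, and the limma F test gave an adjusted p of 0.695. Of all genes, 2.02% had 2-week pool means below all those of 7 and 13 weeks, a group that holds Sftpd and Napsa but not Sftpa1.

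Sftpa1 averaged 0.275, 0.60 and 0.39 after 2, 7 and 13 weeks (limma adjusted p = 0.775), and its 2-week pools overlapped those of 13 weeks. The means of Aqp5 were -0.10, -0.28 and -0.315, with an overlap between all 3 lengths (limma adjusted p = 0.892). In all 4 genes the ratio was nearest to air after 2 weeks, and none of them passed. The F test over weeks called 5 of 3994 genes, 0.125%, with 242 genes at an unadjusted p under 0.05.

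**Figure D4:**
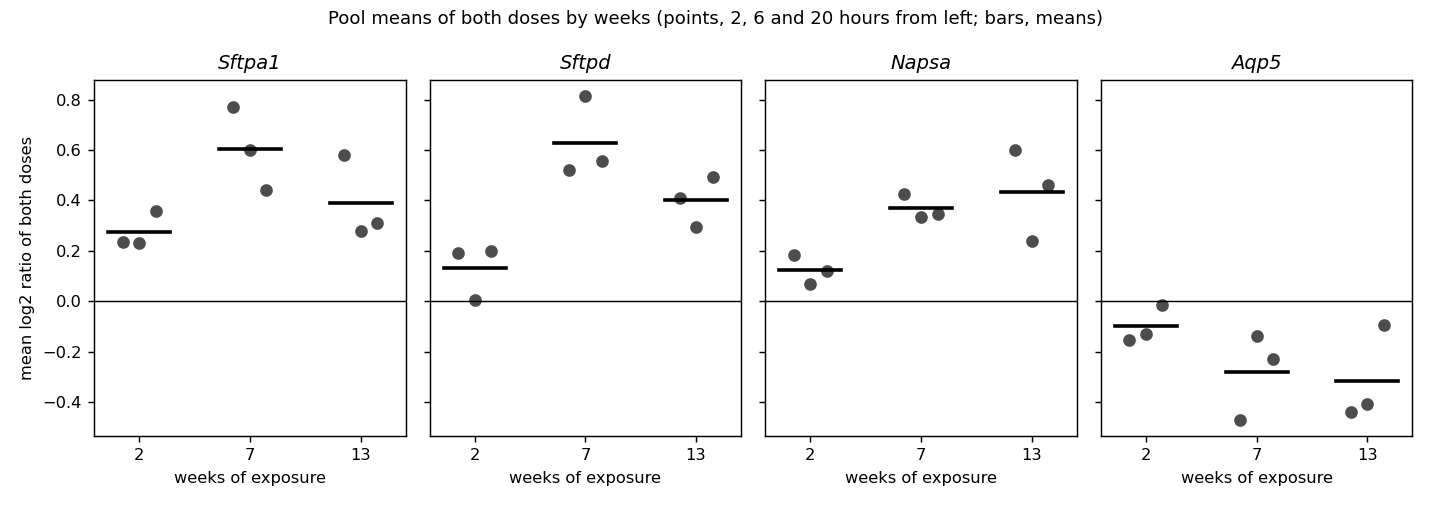
Mean log2 ratio of both doses (y axis) for each of the 9 pools by weeks of exposure (x axis), with points in the order of 2, 6 and 20 hours and a bar at the mean of 3 pools. The 2-week pools of Sftpd and Napsa lie below all of their 7-week and 13-week pools.

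Over the hours after the last session, Aqp5 averaged -0.355, -0.23 and -0.11 at 2, 6 and 20 hours in the means of both doses. In the high-dose samples alone its means were -0.49, -0.27 and -0.11, and in the low-dose samples -0.22, -0.18 and -0.12. The ratio was thus farthest from air at 2 hours and nearest at 20 hours, but the ranges overlapped and the F test over hours did not pass (limma adjusted p = 0.425). Sftpa1 averaged 0.53, 0.37 and 0.37 at 2, 6 and 20 hours (limma adjusted p = 0.596), Sftpd 0.37, 0.37 and 0.42 (limma adjusted p = 0.956) and Napsa 0.40, 0.215 and 0.31 (limma adjusted p = 0.507). The hours test called 64 genes, 1.6% of 3994. Whether the dose difference changed with hours or with weeks was tested as well; no gene passed either limma F test (0%), with 143 and 187 genes at an unadjusted p under 0.05, and the adjusted p of each of the 4 genes was above 0.99.

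How far the 4 genes moved together over the 9 pool means was computed for the 6 pairs of genes. The closest pair was Sftpa1 and Sftpd, with a Pearson r of 0.687 (exact permutation p = 0.0405, adjusted over the 6 pairs 0.135) and a Spearman rho of 0.817 (exact permutation p = 0.0108, adjusted 0.0646). Without the 2 pools farthest from the median of Sftpa1 r was 0.602, and on deviations from the mean of each length of exposure it was 0.0775. The value within lengths was thus lower than that over all 9 pool means, and the difference between the 2 was not tested. Sftpa1 with Napsa gave r = 0.636 and rho = 0.633, with r = 0.76 without the 2 farthest pools and 0.662 within lengths (exact permutation p = 0.0673 for r, adjusted 0.135). Sftpd with Napsa gave r = 0.64 and rho = 0.65 (exact permutation p = 0.0629 for r, adjusted 0.135), and r = 0.278 within lengths. Aqp5 had an r of -0.542 with Sftpa1, -0.187 with Sftpd and -0.557 with Napsa, with exact permutation p of 0.131, 0.63 and 0.12; within lengths these were -0.462, 0.676 and -0.146, so that with Sftpd the sign turned. No pair passed after adjustment.

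The genes whose 18 log2 ratios lay closest to each of the 4, by mean absolute difference over the 18 samples, were taken as its nearest patterns. For Sftpa1 they were Serpinb1a (0.152), Batf (0.153), Sftpd (0.154), Sema4a (0.16) and Stom (0.163), with Napsa 34th. Sftpd was nearest to Dab1 (0.134), Cstb (0.134), Helz2 (0.139), Sftpa1 (0.154) and Laptm5 (0.156), with Napsa 17th. Napsa was closest to Cela1 (0.0939), Tecta (0.0961), Cstb (0.111), Ctsh (0.118) and Dpp7 (0.119). Cstb is cystatin B, an inhibitor of cathepsins, and Ctsh is cathepsin H, a lysosomal protease that type II cells also make. Aqp5 had Prkaca (0.123), Tpm1 (0.128), Mprip (0.131), Prkcb (0.136) and Vsnl1 (0.136) as its nearest genes. Sftpa1 and Sftpd were thus among each other's 5 nearest genes, while seen from Napsa they stood farther off, Sftpd at rank 90 and Sftpa1 at rank 223.

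On chromosome 16 of GRCr8 Sftpa1 and Sftpd are neighbours, with Mbl1, another collectin, the 1 protein-coding gene between them. Mbl1 is on the arrays but had too few values to be tested. Colec12, a membrane-bound scavenger receptor of the collectin family, was the other tested gene of the list of collectins and surfactant proteins, and it fell to the same extent at both doses, by 0.47 ± 0.06 (n = 9; limma adjusted p = 0.000163 at the high and 0.000513 at the low dose). The tested collectins thus did not share a direction: the secreted Sftpa1 and Sftpd rose and Colec12 fell. Racgap1, the neighbour of Aqp5 on chromosome 7 that is on the arrays, had a log2 ratio of -0.06 at the high dose (limma adjusted p = 0.623). Sftpb, Sftpc, Abca3, Nkx2-1, Scgb1a1 and Aqp1 are not analysed here.

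Of the 10 tested genes on a list of type II cell genes, which includes Sftpa1, Sftpd and Napsa, 6 rose and 0 fell at the high dose with a median log2 ratio of 0.38, and 4 rose at the low dose with a median of 0.24. Over all tested genes the medians were 0.0033 and -0.0022. At the high dose 9.56% of all tested genes rose and 7.64% fell, and at the low dose 3.51% rose and 1.44% fell. These shares are the background for the counts of this list and of those below. Dmbt1, a secreted scavenger receptor protein that binds surfactant protein D, rose at the high dose with a log2 ratio of 0.90 ± 0.18 (limma adjusted p = 0.00351), against 0.32 ± 0.18 at the low dose (n = 8), which did not pass. Lyz2, a lysozyme of type II cells and macrophages, rose at both doses, with 0.48 ± 0.08 at the high and 0.46 ± 0.07 at the low dose. Ctsh rose at the high dose with 0.41 ± 0.09 (limma adjusted p = 0.00678). Cebpa, a transcription factor of type II cells, stood at -0.09 ± 0.05 and did not pass. All 3 members are among the genes counted as rising at both doses, and they were picked with earlier results known. Of the other 7 genes, Dmbt1, Lyz2 and Ctsh rose at the high dose and Lyz2 alone at the low dose. The other 7 genes of the list had a median of 0.18 at the high and -0.01 at the low dose, lower than any of the 3 members. On the scale centred on the reference genes the list held 6 that rose and 1 that fell at the high dose, and 2 and 2 at the low dose; Cebpa was the gene that fell at the high dose, with -0.22.

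Among the type I cell genes, those that passed at the high dose stood on both sides of air, while the median of the list lay slightly below it. Of the 14 tested genes of this list 2 rose and 2 fell at the high dose, with a median of -0.09, and 0 rose and 1 fell at the low dose, with a median of -0.04. The 13 genes other than Aqp5 had medians of -0.08 at the high and -0.03 at the low dose. Vegfa, the vascular growth factor that alveolar epithelium makes, was the other gene that fell at the high dose, to -0.27 ± 0.06 (limma adjusted p = 0.00803), and it fell at the low dose as well, to -0.24 ± 0.06 (limma adjusted p = 0.0387). Krt7, an epithelial keratin, rose at the high dose with 0.36 ± 0.08 (limma adjusted p = 0.00917), and so did Spock2, a matrix proteoglycan, with 0.22 ± 0.07 (limma adjusted p = 0.0469). Ager, the receptor for advanced glycation end products and a marker of type I cells, stood at -0.13 ± 0.06 at the high dose, and Pdpn, podoplanin, at -0.19 ± 0.09; neither passed. The counts of this list turn on the centring: relative to the reference genes 9 of 14 fell and 0 rose at the high dose, and 3 fell and 0 rose at the low dose, with Ager at -0.26 and Pdpn at -0.32 among those that fell at the high dose, while Krt7 and Spock2 no longer passed. On that scale 1403 of all 4016 tested genes fell at the high dose and 454 at the low dose.

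**Figure D5:**
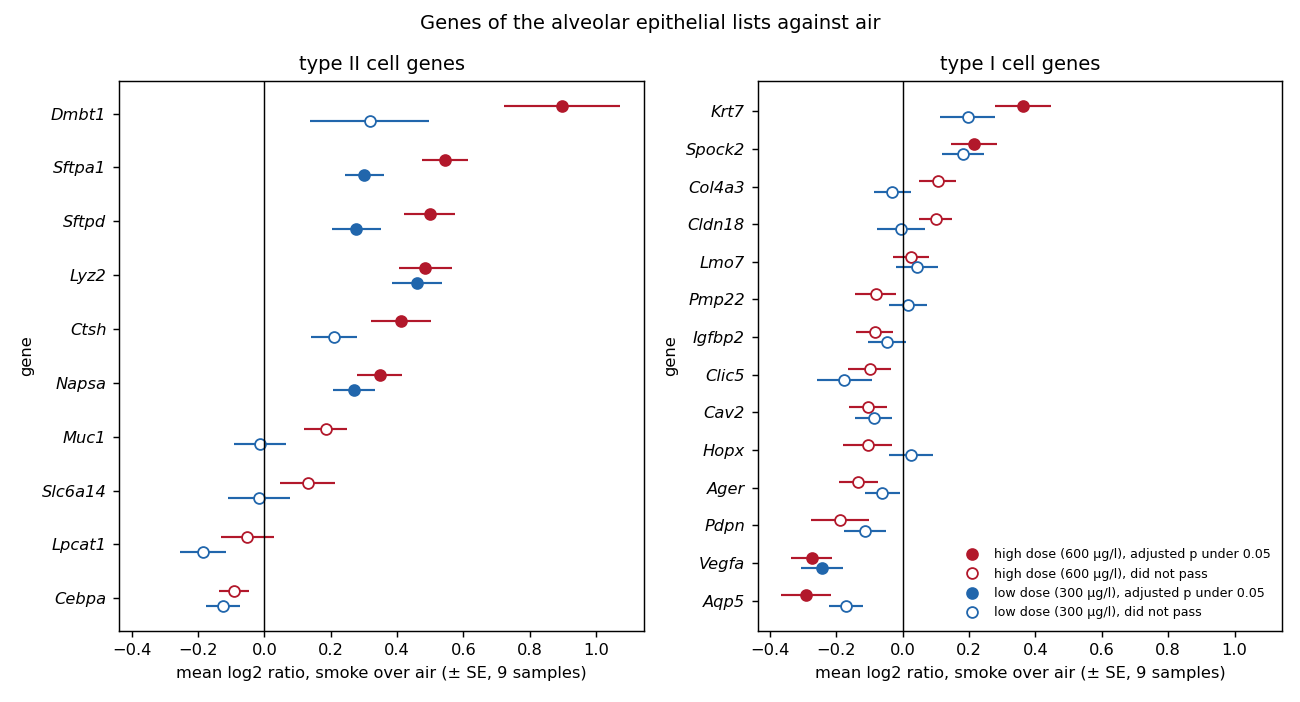
Mean log2 ratio of smoke over air with its SE (x axis) for the tested genes of the type II list (left) and the type I list (right), red for the high and blue for the low dose, filled where the adjusted p was under 0.05. Each mean is over 9 samples, or over 8 for Dmbt1 and Cldn18 at the low dose. Filled points lie to the right of 0 for 6 type II genes at the high dose, and on both sides of 0 for the type I genes.

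Among aquaporins and epithelial ion transport genes, 9 tested with Aqp5, 2 rose and 1 fell at the high dose (median 0.09), and 1 rose at the low dose (median 0.01). Aqp5 was the gene that fell. Atp1b1, the beta subunit of the sodium pump, rose at the high dose with 0.90 ± 0.09 (limma adjusted p = 2.24e-05) and at the low dose with 0.57 ± 0.10 (limma adjusted p = 0.00378), above air in all 18 samples. Aqp4, a water channel of airway epithelium, rose at the high dose with 0.25 ± 0.08 (limma adjusted p = 0.036), a call that was lost relative to the reference genes, at 0.12. Relative to the reference genes 1 gene of this list rose and 3 fell at the high dose, where Scnn1b at -0.29 and Scnn1g at -0.25, subunits of the epithelial sodium channel, fell beside Aqp5, and 1 rose and 1 fell at the low dose. So the tested aquaporins that passed stood on opposite sides of air at the high dose as deposited.

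Napsa belongs with the proteases. Of 8 tested aspartic proteases and cathepsins, the lysosomal proteases, 7 rose at the high dose with a median of 0.51 and 5 rose at the low dose with a median of 0.33, and none fell; relative to the reference genes 6 rose at the high and 4 at the low dose, and none fell. Napsa at 0.35 was in the lower part of this list. Ctsd, cathepsin D, stood at 0.92 ± 0.09 at the high dose, Ctss at 0.73 ± 0.08, Ctsz at 0.69 ± 0.10 and Ctsb at 0.61 ± 0.06, and all 4 also rose at the low dose, with 0.63, 0.42, 0.42 and 0.38. Of 11 genes of surfactant lipid synthesis and transport 2 rose at the high dose, Prdx6 with 0.26 ± 0.07 and Scd2, a fatty acid desaturase, with 0.24 ± 0.08, and none at the low dose; relative to the reference genes neither passed, and 0 rose and 1 fell at the high dose and 0 and 3 at the low dose. The list's medians were 0.12 and -0.03, below the means of Sftpa1 and Sftpd at both doses.

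Of 11 transcription factors and receptors of the alveolar epithelium 2 rose and 1 fell at the high dose (median -0.04) and 1 fell at the low dose (median -0.03). The growth factor receptors Egfr, with 0.22 ± 0.07, and Fgfr2, with 0.21 ± 0.06, rose at the high dose, and the glucocorticoid receptor Nr3c1 fell to -0.31 ± 0.07 at the high dose and to -0.29 ± 0.07 at the low dose. Centred on the reference genes, Egfr and Fgfr2 did not pass, and 0 genes of the list rose and 4 fell at the high dose, where Gata6, Cebpa and Rara joined Nr3c1, and 3 fell at the low dose. On that scale 1403 of all 4016 tested genes fell at the high dose and 454 at the low dose, so 4 of 11 is near the share of all genes. Of 3 airway epithelial genes Foxj1, the transcription factor of ciliated cells, rose at the high dose with 0.52 ± 0.11 (limma adjusted p = 0.00544). Among 6 general epithelial genes 1 rose, Ocln of the tight junction with 0.20 ± 0.05, and 1 fell, Mal with -0.66 ± 0.08, and the median was 0.08 at the high and -0.07 at the low dose. Relative to the reference genes the rise of Ocln was lost and 2 general epithelial genes fell at the high dose, and of the airway genes 1 rose and 1 fell at the high dose.

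Genes of other cells moved in the same samples as the 4. Of 9 tested macrophage genes 6 rose and 2 fell at the high dose, with a median of 0.81, and 5 rose and 1 fell at the low dose, with a median of 0.29. The largest were Lgals3 at 1.28 ± 0.10, Cd68 at 1.12 ± 0.10, Ctsd at 0.92 ± 0.09 and Fabp5 at 0.90 ± 0.10 at the high dose. The 2 that fell, named after their values were seen, were Adgre1 at -0.72 ± 0.06 and Csf1r at -0.19 ± 0.06. The median of the list in a sample ran from 0.41 to 1.06 at the high dose and from -0.03 to 0.57 at the low dose. It was lower after 2 weeks than after 7 and 13 weeks at both doses, with 0.50, 0.82 and 0.82 at the high dose and 0.13, 0.50 and 0.50 at the low dose. The means of Sftpa1, Sftpd and Napsa and the medians of the type II and protease lists were lowest after 2 weeks too, so this course was not particular to the macrophage list. Lyz2 and the cathepsins are made by macrophages too, and Ctsd is on both lists. Of 8 endothelial genes 3 fell at the high dose (Cdh5 at -0.35, Tek at -0.24 and Kdr at -0.17) and none passed at the low dose, with medians of -0.13 and -0.11; relative to the reference genes 6 fell at the high and 2 at the low dose. Of 8 fibroblast and smooth muscle genes 3 fell at the high dose (Col1a1 at -0.53, Col3a1 at -0.50 and Pdgfrb at -0.34) and 1 at the low dose, with medians of -0.19 and -0.09; relative to the reference genes 6 fell at the high and 3 at the low dose. The counts of the macrophage list on that scale were 6 that rose and 2 that fell at the high dose and 4 and 2 at the low dose. Of all 4016 tested genes, 154 rose and 1403 fell on that scale at the high dose, and 74 rose and 454 fell at the low dose. The part of these cells in the ratios of Sftpa1, Sftpd, Napsa and Aqp5 was not tested.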

How the data were processed

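The values the authors deposited are log2 ratios from 2-colour PIQOR arrays, 2 per sample, for 18 samples of whole-lung RNA. Per the labels, smoke-exposed RNA was labelled with Cy5 and control RNA with Cy3 after linear amplification, so a ratio is read as smoke over air; the table does not state it. The scale was checked on the 257 entries below -1: read as log2, 100.0% of them return a linear ratio with 2 decimals, compared with 10.1% read as natural log and 17.9% read as log10. How the arrays were scanned, background-corrected and normalized is not stated in the sources used here, and signal over background is unknown. The errors given come from the spread between samples, each of which is 1 value for its 2 arrays.

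The table has 11994 rows. Rows of 1 gene or probe with the same values were merged, which left 5979 probes, 4780 with a gene symbol from the platform annotation, and several probes of 1 gene were averaged (4616 genes). The 4016 genes measured at both doses in 6 or more of the 9 combinations were tested with limma 3.58.1 (lmFit, eBayes) in R 4.3.3: the 9 ratios of a dose against 0, the 9 differences between doses, and F tests over hours and weeks on pool means with the other factor as covariate. P-values were two-sided and adjusted by Benjamini-Hochberg within each test. Limma's test was tested on simulated data. Python 3.11.15 with matplotlib 3.10.9 drew the figures.

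The 4 genes and 13 gene lists were chosen with earlier results of these data known. Named from each list are up to 4 members past the threshold at the high dose with the largest ratios, a fixed set of alveolar genes (Ager, Pdpn, Cebpa and Aqp4 among those tested) and the 5 nearest patterns of each gene. Outside this rule, Scnn1b, Scnn1g, Gata6 and Rara were named after their values relative to the reference genes were seen. Adgre1 and Csf1r were likewise named after their values were seen. Alternatives were another test, other centring and scaling, every probe on its own, other filters, covariates, the control pool as a block, no pairing, and samples left out by weeks, hours or combination.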

Additional observations from a re-analysis of the deposited data

Results flagged for a closer look

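In 80 groups of 9 values, the 2 doses of 40 named genes, 6 groups had a highest or lowest sample farther from the rest than Dixon's 95% limit of 0.493 allows, where chance flags about 1 in 20 groups. None of them belongs to Sftpa1, Sftpd, Napsa or Aqp5.

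At the high dose Vegfa read 0.155 at 2 weeks and 6 hours, above the other 8 samples at -0.47 to -0.17. Aqp4 read -0.38 at 7 weeks and 20 hours, below the others at 0.08 to 0.44. Ctsb read 0.25 and Ctss 0.10 in the sample of 2 weeks and 20 hours, below the others at 0.53 to 0.79 and 0.55 to 0.99. At the low dose Lyz2 read -0.07 at 2 weeks and 6 hours, below the others at 0.33 to 0.73, and Ctsb read 0.95 at 13 weeks and 2 hours, above the others at 0.11 to 0.52.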

How the results depend on the processing

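Under 15 other settings Sftpa1 and Sftpd passed at the high dose in each, at log2 ratios of 0.41 to 0.62 and 0.35 to 0.63. Leaving out 1 combination at a time gave high-dose values of 0.495 to 0.57 for Sftpa1, 0.44 to 0.54 for Sftpd, 0.31 to 0.38 for Napsa and -0.33 to -0.25 for Aqp5, and all passed. Low-dose ranges were 0.26 to 0.32 for Sftpa1, passing in 9 of 9, 0.23 to 0.33 for Sftpd, passing in 1, 0.22 to 0.305 for Napsa, passing in 5, and -0.19 to -0.15 for Aqp5, passing in none. The counts of genes called ranged from 498 to 679 at the high dose, 123 to 193 at the low dose and 4 to 20 between the doses, where 13 weeks and 2 hours gave 20.

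High-dose calls were lost for Napsa without the 7-week samples (0.27, adjusted p = 0.0912), and for Aqp5 with the exact sign-flip test (-0.29, adjusted p = 0.0619) and without 7 weeks (-0.28, 0.1), 13 weeks (-0.22, 0.137) or 2 hours (-0.19, 0.192); over all 15 settings the adjusted p ran from 0.000681 to 0.0912 for Napsa and from 0.000469 to 0.192 for Aqp5. Low-dose calls were lost with the sign-flip test (Sftpa1 0.30, Sftpd 0.28, Napsa 0.27), with every probe on its own or values in at least 3 combinations (Sftpd 0.28), without 7 weeks (Sftpa1 0.24, Sftpd 0.185, Napsa 0.285), 13 weeks (0.295, 0.24, 0.18), 2 hours (0.25, 0.29, 0.21) or 20 hours (0.33, 0.235, 0.28), and without 6 hours (Sftpd 0.30, Napsa 0.32). Relative to the reference genes Sftpd (0.18) and Napsa (0.17) lost and Aqp5 (-0.27) gained the low-dose call. The dose difference of Napsa turned to -0.012 without 7 weeks. Settings without a week or hour hold fewer samples. In the sign-flip test 9 values set a lower limit to p, and Sftpa1 stood at that limit at both doses. The limit is higher with a value at 0, as in Aqp5 at the high dose. No gene passed that test at the low dose. Otherwise the cause was not tested.

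Genes called at the high dose numbered 322 with the sign-flip test, 198, 268, 278 and 398 without 7 weeks, 13 weeks, 2 hours and 20 hours, and 1557 relative to the reference genes. Those at the low dose numbered 0 with the sign-flip test (687 at an unadjusted p under 0.05), 128, 50 and 33 without 2, 7 and 13 weeks, 48, 104 and 122 without 2, 6 and 20 hours, and 528 relative to the reference genes. Between the doses there were 24 in genes with all 18 values, 2 without pairing, 4 without 13 weeks, 1 without 20 hours, and 0 without 7 weeks (263 unadjusted) or 6 hours (283 unadjusted) by limma. Over hours 32 and 18 passed in the high-dose and low-dose samples alone, and over weeks 2 and 1, and 2 without the other factor. No paired analysis was possible because the labels carry no replicate numbers, as far as a block by number goes; the control pool took its place. It paired the doses, and as a block over all 18 samples it changed no call of the 4 genes (702, 272 and 7 genes called at the high dose, at the low dose and between them).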
